A study of Mus musculus with 3 samples.

Results

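Cholesterol synthesis, uptake, storage and efflux were followed through 34 genes. They were chosen by name for their known roles in sterol metabolism, but with earlier results of these data known. All 34 were found among the 55536 annotated genes of the deposited tables. They comprise 17 enzymes that build cholesterol, 7 genes that control the pathway, and 10 genes that handle cholesterol after it is made or taken up. The cells were macrophages differentiated in culture from C57BL/6J mouse marrow (bone-marrow-derived macrophages, BMDM). All had received Lipid A at 100 ng/ml for 30 min; Lipid A is the moiety of bacterial lipopolysaccharide that Toll-like receptor 4 recognizes. RNA of the cytosolic fraction was sequenced after ribosomal RNA had been removed. There is 1 group of 3 libraries, replicates 1, 2 and 3 of the labels, which share 1 donor record, so the spread between them may be partly technical. Untreated cells and nuclear RNA were not analysed here. Every value below is therefore a level in treated cells and not a response to Lipid A.

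Cells make cholesterol from acetyl-CoA along the mevalonate pathway, through squalene and lanosterol. When the endoplasmic reticulum is poor in sterols, SCAP escorts the SREBP transcription factors to the Golgi, where they are cut and released to switch on the synthesis genes; INSIG proteins hold the complex back when sterols are plentiful. Macrophages also take in much cholesterol from lipoproteins and dead cells, free it in lysosomes, store it as esters, and export it through ABC transporters that the oxysterol-sensing LXR receptors induce.

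Replicates 1, 2 and 3 held 23403552, 50435201 and 35785896 expected counts over annotated genes. All 10 macrophage markers had a mean over libraries of 21.4 TPM or more, led by Lyz2 (lysozyme) at 5224 TPM on average. TPM (transcripts per 1e6, a level corrected for length) serves to compare genes within a library. Nuclear protein-coding genes held 22.3%, 34.4% and 24.3% of TPM in the same order, which bears on every TPM. Libraries are therefore compared on counts per 1e6 counts (CPM) scaled by TMM, a normalization across genes. The 10 stromal markers summed to 280.5, 0.618 and 1.33 CPM in replicates 1, 2 and 3, with Col1a1 as the highest; the number of them without counts was 0, 4 and 3. The 7 neutrophil markers summed to 10.2, 22.4 and 25.6 CPM in replicates 1, 2 and 3, led by S100a9. The 7 lymphoid markers, led by Ighm, summed to 13.4, 15.9 and 10.7 CPM. The 5 adipocyte markers, adipocytes being rich in sterol genes, had at most 1 count each.

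The first question was how the branches of the pathway stand to each other. By median, the 10 handling genes of the 34 were far more abundant than the 17 enzymes of synthesis. The median over handling genes of the log2(TPM + 1) level was 5.61, 6.03 and 5.96 in replicates 1, 2 and 3, a mean of 5.87 ± 0.23 (SD, n = 3). The median of the 17 enzymes was 2.84, 3.54 and 2.99 in the same order, a mean of 3.12 ± 0.37, and that of the 7 control genes was 2.87, 3.15 and 3.31, a mean of 3.11 ± 0.23. The handling median exceeded the synthesis median in every library, by 2.77, 2.49 and 2.97 log2 units in replicates 1, 2 and 3. The control and synthesis medians differed by 0.02, -0.38 and 0.32, with no common sign. Among 9403 nuclear protein-coding genes with a mean of 1 TPM or more, the median level on the same scale was 3.11. The gap did not extend to every list of further pathway genes described below. Their medians, averaged over libraries, were 4.55 for uptake, 4.14 for storage and transport, 2.33 for efflux, 3.35 for control and 2.61 for synthesis.

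**Figure D1:**
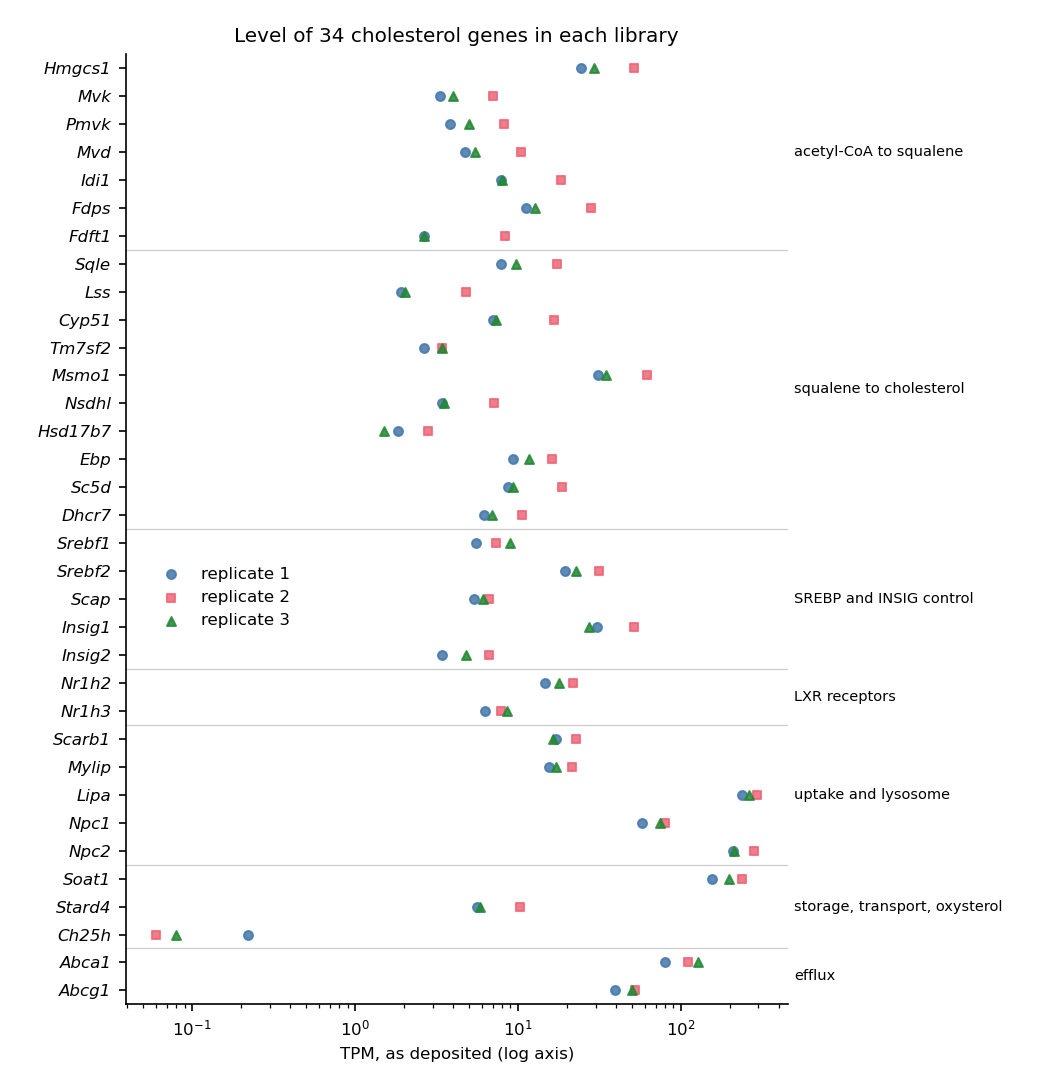
Level of each of the 34 genes in TPM (log axis) in replicate 1 (circles), replicate 2 (squares) and replicate 3 (triangles), grouped by role. Lipa, Npc2, Soat1 and Abca1 lie furthest to the right, each with a mean above 100 TPM, while Ch25h lies alone below 1 TPM.

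A mean of at least 1 TPM was reached by 33 of the 34 genes, of at least 10 TPM by 19, and of at least 100 TPM by 4; the shares of all 22015 nuclear protein-coding genes at these levels were 42.7%, 18% and 1.91%. The 4 most abundant, Lipa, Npc2, Soat1 and Abca1, were all handling genes, and no enzyme or control gene reached 100 TPM. The highest enzymes were Msmo1 and Hmgcs1, and the lowest was Hsd17b7, at 1.84, 2.8 and 1.5 TPM in replicates 1, 2 and 3. The counts of each tested gene were high enough that 95% Wilson intervals reached at most 17.1% of the value to either side (Tm7sf2, 133 counts in replicate 1), and 0.685% at best (Abca1, 81772 counts in replicate 2).

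In the enzymes that lead from acetyl-CoA to squalene, replicate 2 stood above the other libraries at every step. Hmgcs1 (chr13:119690379-119708260), which condenses acetyl units to HMG-CoA, had 153.5, 219.6 and 166.2 CPM in replicates 1, 2 and 3. Idi1, which isomerizes the isoprenoid building block, had 43.8, 70.4 and 40.2 CPM in replicates 1, 2 and 3. Fdps, which makes farnesyl diphosphate, the branch point to prenylated proteins and sterols, had 24.0, 39.7 and 24.5 CPM. In each of these genes replicate 2 was the high library and the other libraries lay close together. Replicate 2 was 1.37-fold above the mean of the other libraries for Hmgcs1, 1.68-fold for Idi1 and 1.64-fold for Fdps. The kinases Mvk and Pmvk and the decarboxylase Mvd, which carry mevalonate to the isoprenoid unit, were 1.35, 1.33 and 1.48-fold higher in replicate 2.

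Squalene synthase, Fdft1 (chr14:63145150-63179578), had the widest spread of the 33 genes with enough counts to be tested; Ch25h, the gene left out, is described further on. It had 14.8, 31.6 and 13.2 CPM in replicates 1, 2 and 3, from 339, 1688 and 459 counts. Replicate 2 was thus 2.25-fold above the mean of the other libraries, which were close to each other. At its end it shares 774 bases, 18.3% of its exon bases, with the oppositely oriented and abundant cathepsin gene Ctsb, and whether counting used the strand is not stated. Ctsb had 18490, 16630 and 19860 CPM in replicates 1, 2 and 3, with replicate 2 the lowest. Its part in the Fdft1 counts was not tested. Smaller exon overlaps with oppositely oriented genes affected Npc1 (4.52% of its exon bases), Cyp51 (3.76%) and Srebf1 (1.93%).

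From squalene to cholesterol the same library led for 9 of 10 enzymes. Sqle, the squalene epoxidase that is a control point of the pathway, had 40.9, 62.0 and 46.1 CPM in replicates 1, 2 and 3. Cyp51 (chr5:4081145-4104746), which removes the first methyl group of lanosterol, had 53.0, 86.4 and 49.5 CPM, and Msmo1 (chr8:64718139-64733792), an oxidase that removes later methyl groups, had 97.0, 138.1 and 96.4 CPM. Replicate 2 was again alone at the top, 1.43-fold above the mean of the others for Sqle, 1.69-fold for Cyp51 and 1.43-fold for Msmo1. The lanosterol-forming Lss and the demethylation partners Nsdhl and Hsd17b7 were 1.41, 1.47 and 1.30-fold higher there, and the desaturase Sc5d 1.31-fold. Ebp and Dhcr7 differed least among the enzymes of the shift. Dhcr7, the last reductase, was 1.12-fold higher in replicate 2. The isomerase Ebp had 28.2, 30.5 and 27.9 CPM and did not pass the test between libraries described below (adjusted p = 0.0849, chi-square index of dispersion).

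The exception was Tm7sf2, a sterol reductase of the endoplasmic reticulum, with 5.82, 5.23 and 6.14 CPM in replicates 1, 2 and 3, where replicate 2 was the lowest. Tm7sf2 shares 532 bases, 12.1% of its exon bases, with Vps51 on the same strand. Vps51 had 27.8, 23.4 and 26.7 CPM in replicates 1, 2 and 3, also lowest in replicate 2. Its part in the Tm7sf2 counts was not tested. Lbr, which catalyses the same reduction as Tm7sf2 and was singled out after its values were seen, had 22.4, 22.2 and 24.3 CPM. Neither passed the test between libraries (adjusted p = 0.237 for Tm7sf2 and 0.154 for Lbr, chi-square index of dispersion).

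That test asked, for each gene, whether the 3 libraries differed by more than counting error. Among the 33 genes tested, 31 passed at an adjusted p of 0.05, beside 67.9% of all 13237 genes tested. Most genes pass at this depth, because counting error is small, so passing is no mark of these genes. Passing with the highest value in replicate 2 were 18 of the 33 members, beside 32.0% of all genes tested, and 15 of these were among the 17 enzymes; the others were Insig1, Insig2 and Stard4. Passing with the highest value in replicate 3 were 10 members, none of them an enzyme, beside 19.0% of all genes. Passing with the highest value in replicate 1 were 3 members, Scap, Scarb1 and Npc2, beside 16.9% of all genes. Without replicate 2, 14 of the 33 members passed, beside 33.4% of all genes, so both shares were lower than with all libraries. Without replicate 1, 29 members passed, beside 56.7% of all genes, and without replicate 3, 28 members, beside 53.0%. With or without a passed test, 16 of the 17 enzymes were highest in replicate 2, against 44.1% of all genes tested. A stricter test asked whether a gene spread more than genes of like level, by edgeR's goodness of fit to the trended dispersion. Fdft1 was the only one of the 33 to pass (adjusted p = 0.017), beside 1.99% of all genes. It was also the only one without replicate 1, beside 0.757% of all genes. It no longer passed when replicate 2 or replicate 3 was left out, where 0 members passed, beside 1.49% and 1.46% of all genes. At an unadjusted p under 0.05, edgeR's goodness of fit called 4 members with all libraries, Fdft1, Cyp51, Idi1 and Fdps, beside 5.94% of all genes. It called the same 4 without replicate 3, beside 4.90%, the same 4 and Srebf1 without replicate 1, beside 5.25%, and 0 without replicate 2, beside 3.77%. The adjusted p with all libraries was 0.163 for Cyp51, 0.22 for Idi1 and 0.617 for Fdps.

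**Figure D2:**
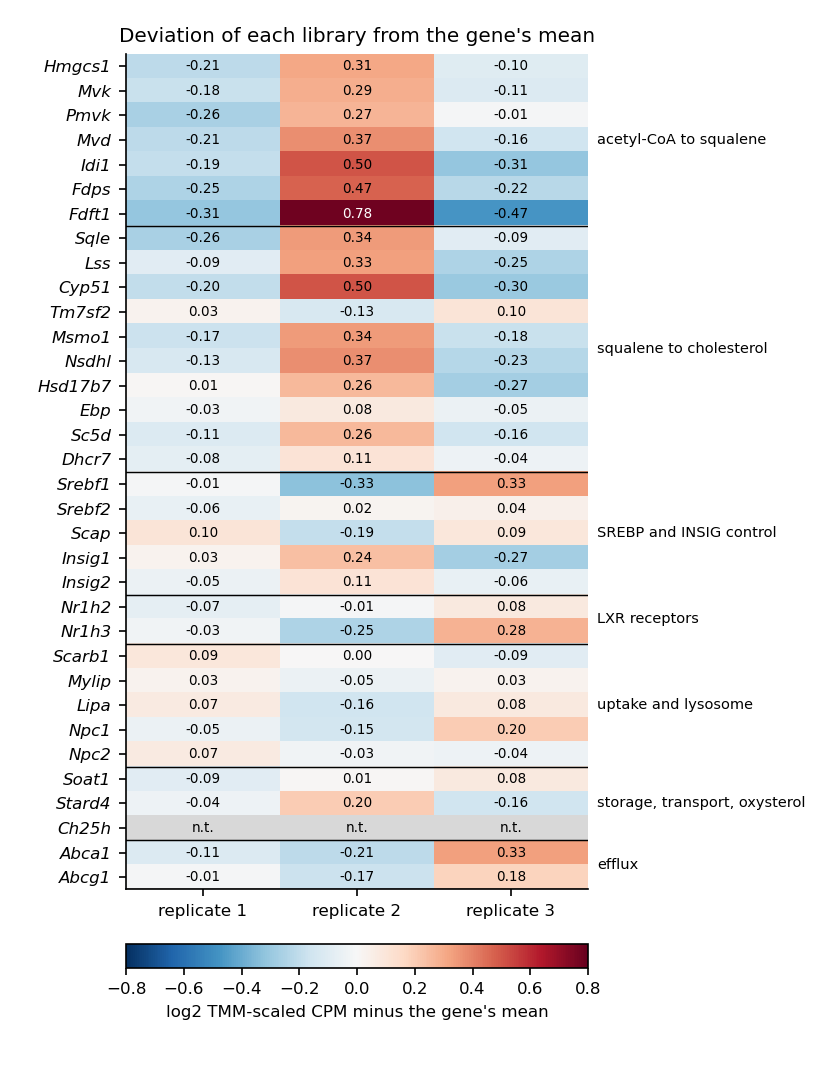
Deviation of each library (columns) from the gene's mean over libraries, as log2 TMM-scaled CPM, for the 34 genes (rows, grouped by role). Red is above and blue below the mean, and n.t. marks Ch25h, which had too few counts to be tested; 16 of the 17 enzymes are red in replicate 2, and Abca1, Abcg1, Srebf1 and Nr1h3 are red in replicate 3.

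The size of this shift was modest and shared. The median log2 deviation of the enzymes was -0.18, 0.33 and -0.16 in replicates 1, 2 and 3. Control genes stood at -0.03, -0.01 and 0.08 in replicates 1, 2 and 3, handling genes at -0.01, -0.05 and 0.08, and all genes tested at -0.02, 0.03 and -0.01. The 10 macrophage markers stood at 0.00, -0.12 and 0.10, so like the handling genes they were lowest in replicate 2 and highest in replicate 3. All 10 passed the test between libraries, beside 67.9% of all genes. Highest in replicates 3, 1 and 2 were 6, 3 and 1 of them, beside 19.0%, 16.9% and 32.0% of all genes. The 17 enzymes together had 613, 882 and 619 CPM in replicates 1, 2 and 3, so replicate 2 was 1.43-fold above the mean of the others. The sums of the control genes were near level, at 496, 513 and 502 CPM. Replicate 2 also had the most counts and the least Malat1, a nuclear non-coding RNA, with 3826, 1284 and 6469 CPM in replicates 1, 2 and 3. Their part in the result was not tested. In bulk RNA, fewer cells of a kind and less RNA per cell cannot be told apart.

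**Figure D3:**
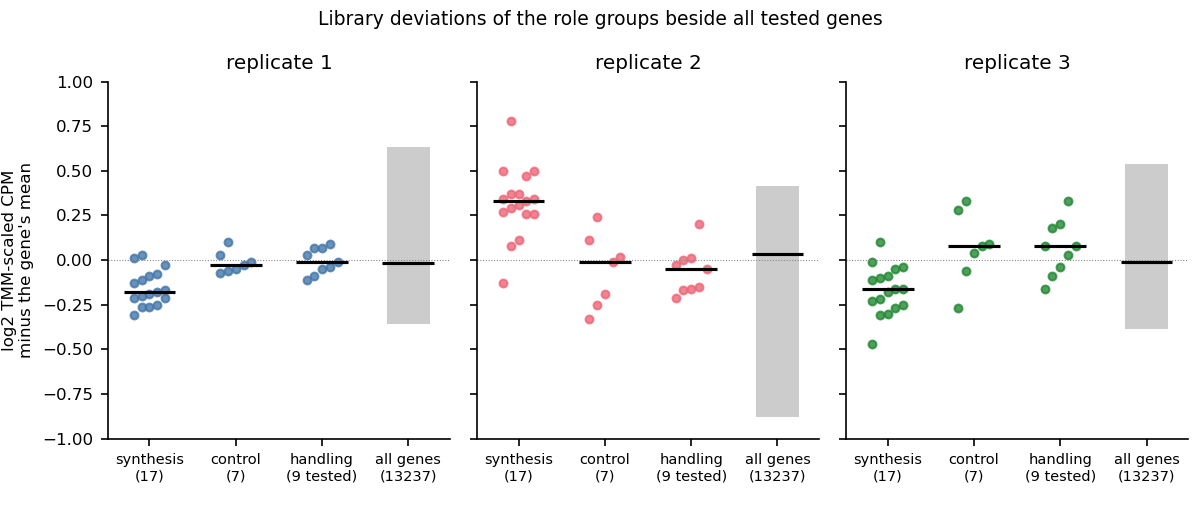
Log2 deviation from the gene's mean in each library (panels) for the enzymes, control genes and tested handling genes (points, with the median as a bar). The grey column spans the 5th to 95th percentile of all 13237 genes tested, with their median; the enzymes' median is 0.33 in replicate 2 and below 0 in the other libraries.

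Promoters of the synthesis genes are shown because most of these genes shared 1 high library. Windows from 250 bases before to 50 bases after the start site were taken from RefSeq (GRCm38.p6) and were available for 27 of the 34 genes; Fdps, Fdft1, Sqle, Scarb1, Npc1, Stard4 and Abcg1 have none here. Each is printed in the direction of transcription, and capitals mark CCAAT on either strand (ATTGG when read on the other strand), the letters bound by NF-Y, a partner of SREBP, and TCACNCCAC on either strand, a form of the sterol regulatory element. Hmgcs1 (chr13:119690101-119690400, plus strand), Msmo1 (chr8:64733529-64733828, minus), Cyp51 (chr5:4104648-4104947, minus) and Idi1 (chr13:8885356-8885655, plus) are enzymes of the shift. Insig1 (chr5:28071162-28071461, plus) is a control gene that was highest in the same library, and Abca1 (chr4:53159846-53160145, minus) is among the genes that were highest in replicate 3. Abca1 has no CCAAT in its window, nor do Nr1h2 and Nr1h3. Lipa, Mylip, Soat1, Srebf1, Srebf2 and Tm7sf2, also highest in replicate 3, do have CCAAT in a window.
Hmgcs1: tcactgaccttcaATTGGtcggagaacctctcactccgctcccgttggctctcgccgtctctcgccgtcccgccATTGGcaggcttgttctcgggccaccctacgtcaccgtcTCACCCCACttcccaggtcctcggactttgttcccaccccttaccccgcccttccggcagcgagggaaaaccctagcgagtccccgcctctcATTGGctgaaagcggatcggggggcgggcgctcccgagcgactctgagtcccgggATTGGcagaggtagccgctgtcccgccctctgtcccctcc
Msmo1: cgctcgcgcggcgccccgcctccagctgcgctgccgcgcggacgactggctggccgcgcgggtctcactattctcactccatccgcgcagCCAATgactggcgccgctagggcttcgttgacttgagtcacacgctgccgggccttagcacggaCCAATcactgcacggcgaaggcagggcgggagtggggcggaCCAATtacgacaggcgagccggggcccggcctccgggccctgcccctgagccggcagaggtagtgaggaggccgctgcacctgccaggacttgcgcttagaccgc
Cyp51: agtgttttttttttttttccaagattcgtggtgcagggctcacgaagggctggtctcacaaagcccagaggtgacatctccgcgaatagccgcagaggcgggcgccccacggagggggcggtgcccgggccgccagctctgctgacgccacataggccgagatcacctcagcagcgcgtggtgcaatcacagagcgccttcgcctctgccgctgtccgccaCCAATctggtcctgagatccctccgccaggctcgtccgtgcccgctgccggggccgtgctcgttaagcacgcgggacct
Idi1: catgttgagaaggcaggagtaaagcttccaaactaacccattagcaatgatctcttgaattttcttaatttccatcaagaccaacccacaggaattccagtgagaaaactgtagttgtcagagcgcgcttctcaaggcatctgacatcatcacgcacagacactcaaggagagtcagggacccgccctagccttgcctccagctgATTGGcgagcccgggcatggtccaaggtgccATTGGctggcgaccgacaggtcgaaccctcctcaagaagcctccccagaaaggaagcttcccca
Insig1: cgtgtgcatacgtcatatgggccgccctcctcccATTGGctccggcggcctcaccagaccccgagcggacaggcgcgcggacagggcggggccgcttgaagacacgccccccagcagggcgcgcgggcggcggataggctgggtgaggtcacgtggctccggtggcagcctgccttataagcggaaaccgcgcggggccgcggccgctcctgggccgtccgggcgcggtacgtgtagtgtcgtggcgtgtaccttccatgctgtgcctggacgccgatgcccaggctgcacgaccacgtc
Abca1: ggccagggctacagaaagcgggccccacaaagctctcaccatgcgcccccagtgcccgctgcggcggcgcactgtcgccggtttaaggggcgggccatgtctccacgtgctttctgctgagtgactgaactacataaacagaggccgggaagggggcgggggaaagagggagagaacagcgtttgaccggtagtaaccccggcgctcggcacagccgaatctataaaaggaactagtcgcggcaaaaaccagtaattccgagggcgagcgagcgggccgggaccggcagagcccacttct

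CCAAT was found in a window of each of the 14 enzymes with an entry, in 4 of 7 control genes and in 4 of 6 handling genes. In all, 22 of 27 genes had it, or 81.5%, against 37.4% of all 32851 windows and 42.7% of 7541 protein-coding genes with a window and a mean of 1 TPM or more. Tm7sf2, the enzyme that was not highest in replicate 2, carried it as well. TCACNCCAC was found in 1 of the 27 genes, Hmgcs1, where it begins 137 bases before the start. It was found in 1.24% of all windows and in 1.34% of the expressed protein-coding genes. GGGCGG, the GC box bound by Sp1, was found in 23 of the 27 genes, or 85.2%, against 35.7% of all windows but 70.5% of the expressed protein-coding genes. In the windows of the 27 genes, 0 matches of different motifs shared bases. A gene with several windows has more chances to hold one, and a match is a description of the letters, not of binding. In Insig2, Srebf1 and Pmvk the window nearest the start of the most abundant transcript had no CCAAT. Their matches lay in windows of other starts. In Soat1, Dhcr7, Hmgcs1 and Sc5d the window with CCAAT did not include the start of the most abundant transcript. The only Soat1 window, chr1:156474279-156474578, lay upstream of that start at position 156466804.

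**Figure D4:**
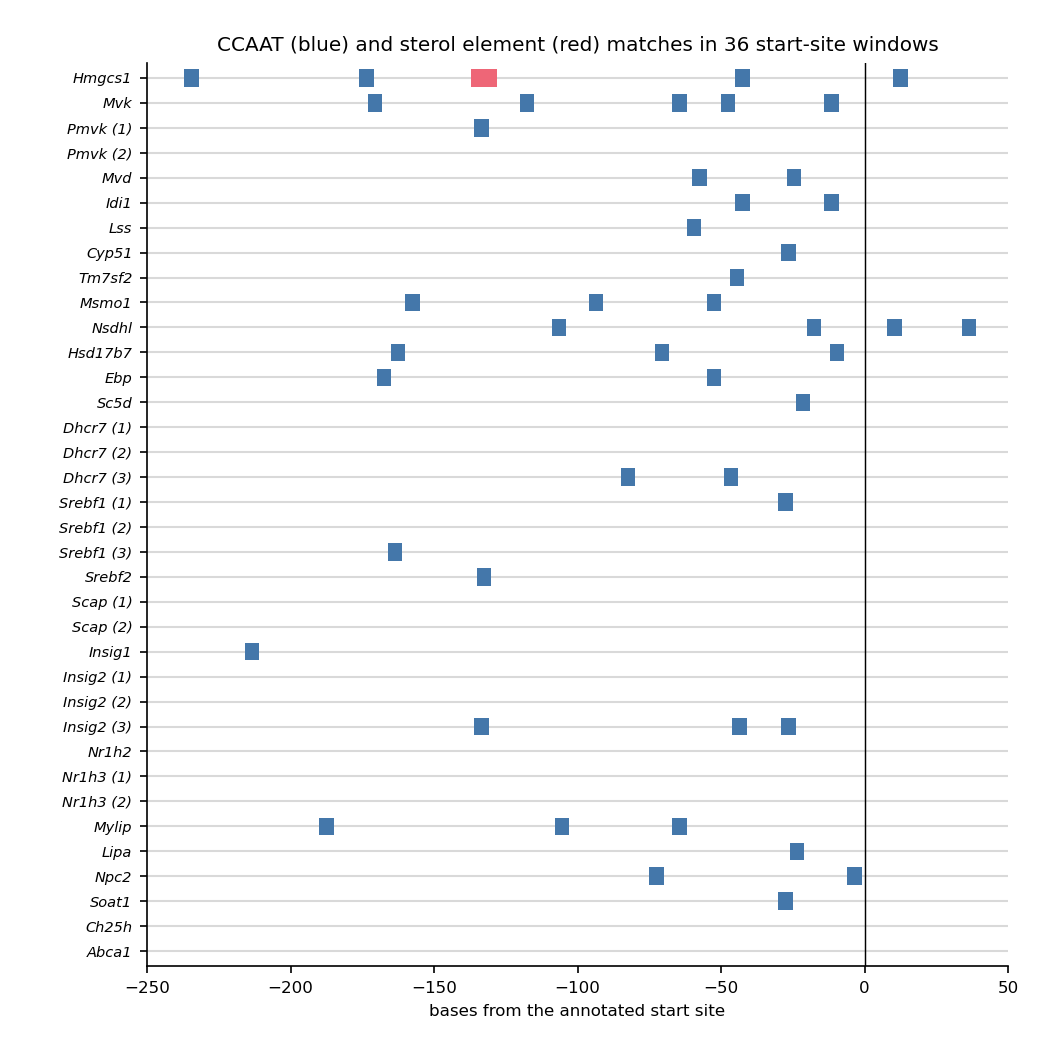
CCAAT (blue) and TCACNCCAC (red) on either strand in 36 windows of 27 genes, by distance in bases from the annotated start site; a number after a name tells apart several start sites of a gene. All 14 enzymes have a blue mark in a window, and Hmgcs1 has 4 of them and the only red mark.

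Among the control genes, the genes of SREBP itself did not follow the enzymes. Srebf2, whose product drives the synthesis genes, had 169.5, 178.4 and 181.8 CPM in replicates 1, 2 and 3, within 0.06 log2 units of its mean. Srebf1, whose product leans to fatty acid genes, had 45.5, 36.5 and 57.7 CPM, lowest in the library where the enzymes were highest. Scap, the escort, was also lowest in replicate 2, with 43.3, 35.2 and 42.9 CPM. Insig1 (chr5:28071363-28078662), both a brake on SREBP and a classical SREBP target, was highest in replicate 2 like the enzymes and lowest in replicate 3, at 151.3, 175.1 and 122.7 CPM. Its paralogue Insig2 was also highest in replicate 2, by less, at 17.3, 19.4 and 17.2 CPM with replicates 1 and 3 level, and only just passed the test (adjusted p = 0.0483). By level, Insig1 was the leading form in every library, with a TPM ratio over Insig2 of 8.96, 7.74 and 5.71, and Srebf2 exceeded Srebf1 by 3.5, 4.33 and 2.55-fold.

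Srebf1 makes a strong activator, SREBP1a, from an upstream start and SREBP1c from a downstream one. The transcript Srebf1-201, which begins at position 60220604 of chromosome 11 on the minus strand, had 5.24, 5.62 and 6.32 TPM in replicates 1, 2 and 3. Srebf1-207, a protein-coding transcript that begins 10139 bases downstream, had 0.17, 0.42 and 0.22 TPM. Srebf1-203, a protein-coding transcript that begins further downstream at position 60207188, had 0.13, 0.44 and 1.13 TPM. Srebf1-201 thus held most of the gene's TPM in every library, 80.7% ± 12.4, with 3.75% ± 1.74 for Srebf1-207 and 6.99% ± 5.21 for Srebf1-203 (SD, n = 3). The second deposited transcript table gave 58.5% ± 14.8 for Srebf1-201, 9.55% ± 2.49 for Srebf1-207 and 3.37% ± 2.83 for Srebf1-203, so the order of the downstream transcripts depended on the table. In that table Srebf1-204, a processed transcript that begins upstream of Srebf1-201, held 21.6% ± 10.4, against 3.99% ± 3.47 in the first. Srebf1-201 was the leading transcript in each library of both tables, at its lowest with 41.7% in replicate 2 of the second. Which transcripts encode SREBP1a and SREBP1c is not annotated in the files.

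The LXR receptors, which sense oxysterols, were Nr1h2 (LXR beta) at 14.6, 21.9 and 17.9 TPM and Nr1h3 (LXR alpha) at 6.29, 7.9 and 8.59 TPM in replicates 1, 2 and 3. Nr1h2 was the more abundant in each library, by 2.33, 2.77 and 2.08-fold. On the CPM scale Nr1h3 was highest in replicate 3, with 20.3, 17.4 and 25.3 CPM, while Nr1h2 was nearly level at 49.1, 51.0 and 54.2 CPM. Both passed the test between libraries (adjusted p = 6.64e-14 for Nr1h3 and 0.0325 for Nr1h2, chi-square index of dispersion).

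The lysosomal genes Lipa and Npc2 were the most abundant of the 34. Lipa (chr19:34492318-34527474), the acid lipase that frees cholesterol from lipoprotein esters, had 238, 296 and 264 TPM in replicates 1, 2 and 3, above 98.7% of expressed nuclear protein-coding genes. Npc2, which takes the freed sterol from the lumen, had 209, 282 and 213 TPM, and Npc1, the membrane protein that passes it on, had 57.7, 79.7 and 74.8 TPM. Npc2 was thus 3.62, 3.54 and 2.85-fold above its partner. Between libraries the values of these genes lay within 0.2 log2 units of each gene's mean. Lipa had 1331, 1135 and 1341 CPM and Npc2 1300, 1209 and 1202 CPM, while Npc1 was highest in replicate 3 with 461, 429 and 545 CPM. Scarb1, a receptor for high-density lipoprotein, had 77.2, 72.1 and 68.0 CPM. Mylip, an LXR-induced ubiquitin ligase that marks lipoprotein receptors for degradation, had 90.2, 85.4 and 90.3 CPM. The last-named genes lay within 0.09 log2 units of their means.

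Storage was represented by Soat1, the esterifying enzyme that fills the lipid droplets of macrophages. Soat1 (chr1:156424525-156474331) had 156, 237 and 196 TPM in replicates 1, 2 and 3, and 867, 925 and 975 CPM. Nceh1, which hydrolyses the stored esters, had less RNA per length, with a TPM ratio of Soat1 over Nceh1 of 1.94, 2.14 and 2.06. Soat2, the liver and intestine form, had 5, 4 and 5 counts. Stard4, a soluble sterol carrier and a known SREBP target, behaved like the enzymes, with 53.7, 63.5 and 49.2 CPM and replicate 2 as the highest.

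Ch25h, the enzyme that makes hydroxycholesterol from cholesterol and is known as a gene induced in macrophages by Toll-like receptor ligands through interferon, was close to absent. It had 12, 5 and 6 counts in replicates 1, 2 and 3, or 0.513, 0.0991 and 0.168 CPM of the library total. Exact 95% binomial intervals were 0.265 to 0.896, 0.0322 to 0.231 and 0.0615 to 0.365 CPM. Replicate 1 was the highest, its interval above that of replicate 2 and overlapping that of replicate 3. A count of 0, which allows 3 counts, would correspond to 0.128, 0.0595 and 0.0838 CPM, so the values of replicates 2 and 3 are within a few counts of that limit. With a mean under 10 counts it was not tested. Its neighbour Lipa, which lies 17153 bases away on chromosome 19, was among the most abundant genes of all.

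The efflux transporters were both abundant and highest in replicate 3. Abca1 (chr4:53030787-53159895), which loads cholesterol onto apolipoprotein A, had 1643, 1532 and 2227 CPM in replicates 1, 2 and 3. Abcg1 (chr17:31057675-31117988), which exports it to high-density lipoprotein, had 452, 406 and 516 CPM. The order of the libraries was the same for both, with replicate 3 highest and replicate 2 lowest, opposite to the enzymes in that replicate 2 was at the bottom. Replicate 3 was 1.4-fold above the mean of the others for Abca1 and 1.2-fold for Abcg1. By level Abca1 exceeded Abcg1 by 2.03, 2.13 and 2.54-fold. The ratio of Abca1 to Hmgcs1 in TPM, an export gene set against a synthesis gene, was 3.28, 2.16 and 4.35, lowest in replicate 2 and highest in replicate 3.

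Beyond the 34 genes, 52 further genes of the pathway were looked at in 6 lists. In these lists 41 of 48 tested genes passed the test between libraries, 17 of them highest in replicate 2, 15 in replicate 3 and 9 in replicate 1. The background over all genes is the one given above, 67.9% passing, and 32.0%, 19.0% and 16.9% passing with the highest value in replicates 2, 3 and 1. In the list of further synthesis genes, 4 of 6 passed and all 4 were highest in replicate 2, beside that 32.0%. Its most abundant was Acly, which supplies acetyl-CoA, with 152.6, 170.2 and 167.5 CPM in replicates 1, 2 and 3. Of 9 fatty acid genes, the arm governed by the same SREBP family, 7 passed, 6 of them highest in replicate 2, beside 67.9% and 32.0% of all genes. The desaturases Scd2 and Fads1 were the most abundant of these, with 289, 466 and 351 CPM for Scd2 and 140.7, 182.2 and 121 CPM for Fads1. Scd1 passed the stricter goodness of fit as well (adjusted p = 0.0154, edgeR), the only one of these 52 genes to do so, and was 2.58-fold above the mean of the others in replicate 2.

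Among further handling genes, all 7 tested uptake genes passed, beside 67.9% of all genes, and 5 of them were highest in replicate 3, beside 19.0%. They were led by Lpl, a secreted lipoprotein lipase, with 1475, 1416 and 2244 CPM in replicates 1, 2 and 3, and Lrp1, a large endocytic receptor, with 1716, 1214 and 2453 CPM. Of the further efflux genes 5 of 7 passed, with 1 highest in replicate 1 and 2 in each of the others, and the list's median log2 deviation in replicate 3 was -0.01. Apoe, the apolipoprotein that macrophages secrete, was the most abundant gene of all lists of the pathway at 1492, 2172 and 2531 TPM, and had 2488, 2525 and 3878 CPM. Pltp, a phospholipid transfer protein, had 555, 393 and 632 CPM. In storage and transport 9 of 10 passed, without a common library. Plin2, the coat protein of lipid droplets, had 844, 988 and 1266 CPM and Nceh1 626, 593 and 669 CPM. The 9 further control genes all passed, 5 of them highest in replicate 1, beside 67.9% and 16.9% of all genes. Among them Rxra, the partner of the LXR receptors, had 122.4, 112.9 and 137.7 CPM and was highest in replicate 3.

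The 10 early cytokine genes, which Lipid A induces through its receptor, all passed with the highest value in replicate 1, beside 16.9% of all genes, with summed CPM of 3857, 1977 and 2130 in replicates 1, 2 and 3. Replicate 1 is also the library that stood apart in the stromal markers, 280.5 CPM against 0.618 and 1.33 CPM in replicates 2 and 3, and their part in the result was not tested. Neither the library that was highest for the enzymes nor the one that was highest for the transporters was thus the highest for the cytokines. With 3 libraries no correlation was computed.

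At the transcript level, the leading transcript of each of the 34 genes was protein-coding and was the same in both deposited transcript tables, and in 23 genes it held 80% or more of the gene's TPM. It was transcript 201 of its gene in 32 genes (Abca1-201, Lipa-201 and so on) and transcript 202 in the other 2, Sc5d and Dhcr7. In 7 genes a further transcript held 20% or more. Soat1-201 held 52.0% ± 2.51 and Soat1-206 26.3% ± 2.94 (SD, n = 3), and Nr1h2-201 held 45.9% ± 3.74 and Nr1h2-202 22.2% ± 0.583. For these genes the second table gave 50.2% and 31.5%, and 46.7% and 22.9%, so the shares depended little on the table. Nr1h3-201 and Nr1h3-202 held 62.4% ± 11.1 and 23.1% ± 6.29, and Sc5d-202 and Sc5d-201 held 64.4% ± 7.68 and 33.4% ± 6.26. In Hmgcs1, whose named transcripts start 18 bases apart, Hmgcs1-201 held 67.9% ± 2.65 and Hmgcs1-202 30.8% ± 2.23, but 82.6% and 14.7% in the second table.

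Other shares depended on the table. In Npc1 a retained-intron transcript, Npc1-206, held 34.5% ± 2.73 beside Npc1-201 at 64.2% ± 2.13, but 4.64% in the second table beside 93.1%. In Msmo1 the processed transcript Msmo1-206, annotated without a reading frame, held 37.7% ± 8.52 beside Msmo1-201 at 61.3% ± 8.85, and 22.97% in the second table. Retained-intron transcripts together held 10% or more in 4 genes in the first table, Npc1, Srebf2, Ebp and Lss, and in 2 genes in the second, Srebf2 at 19.1% and Lss at 14.9%. Ebp had 18.1% in the first table and almost none in the second.

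**Figure D5:**
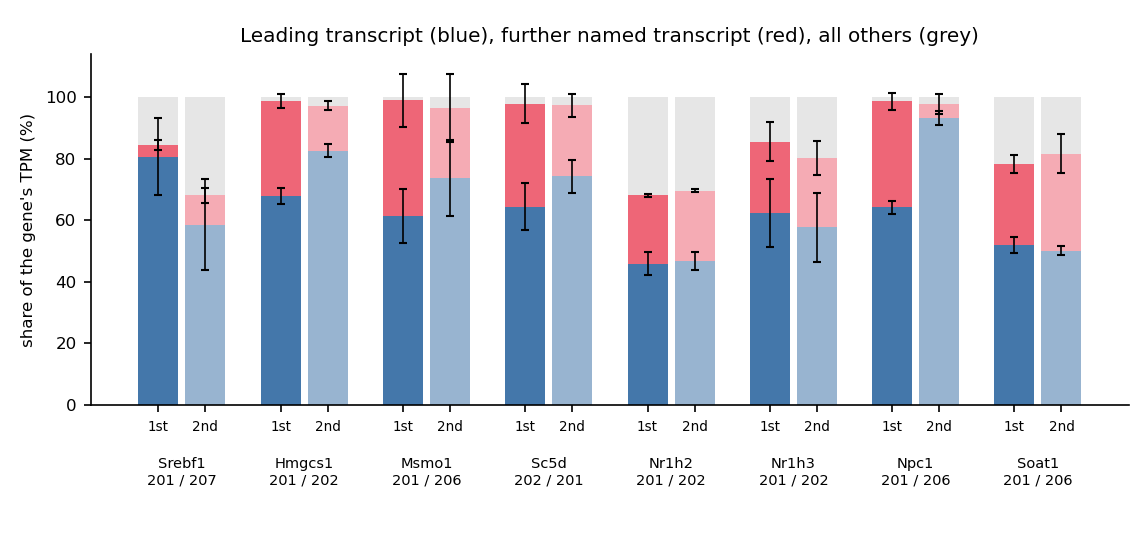
Mean share of the gene's TPM (bars, %; error bars are the SD over 3 libraries) of the leading transcript, a further named transcript and all others, for 8 genes in the first and the second deposited transcript table; the numbers under a name are those of the leading and the further transcript. The tables are close for Soat1 and Nr1h2 and far apart for Npc1, whose transcript 206 holds 34.5% in the first and 4.64% in the second.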

How the data were processed

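Ribosomal RNA-depleted RNA of the cytosolic fraction was measured in 3 libraries (1 µg input, 250 to 400 nt fragments, per the labels' protocols). The authors deposited 1 gene table and 2 transcript tables per library, on mm10 with GENCODE M21 per the deposited readme files. The expected counts that the authors deposited estimate the reads of a gene, with shared reads divided by the authors' estimator, and they were rounded to whole numbers here. The deposited TPM values are scaled to 1e6 over all rows, so abundant short RNAs such as 7SL lower those of messenger RNAs. The deposited posterior standard deviation of the counts, one of the other columns, was at most 4.91% of the count for any member in any library. Which aligner, quantifiers and strand setting were used is not given in the sources used here. Rows that name no annotated gene (tRNA, spike-in and phiX) held 0.462%, 0.109% and 0.0969% of the counts in replicates 1, 2 and 3 and were left out.

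Levels are TPM with a pseudocount of 1 on the log2 scale. Genes averaging at least 10 counts were tested between libraries with a chi-square index of dispersion (null: Poisson sampling, TMM-scaled library sizes), and with the goodness of fit of edgeR 4.0.16 (R 4.3.3) to a trended dispersion from an intercept-only design. Both were run on all 13237 such genes and adjusted by the Benjamini-Hochberg method at 0.05. Deviations are log2 CPM with a prior count of 0.5 minus the gene's mean. The scripts were tested on simulated data. With 1 group there was no differential expression to test. All members are named, as are the 2 most abundant genes of each further pathway list, transcripts that lead a gene (by their number where they are not described) or hold 20% of it, other Srebf1 transcripts, and the highest marker of each other cell type; Lbr, Scd1 and Soat2 were added after their values were seen. The values of 2 genes that this rule names are not reported here. The members and lists were chosen with earlier results of these data known. Alternatives were the size factors of DESeq2 1.42.0, other scalings, filters and pseudocounts, the second transcript table and leaving out each library. Intervals and limits cover counting error only: without molecular identifiers, reads may be copies of the same molecule. Python 3.11.15 with scipy 1.17.1, pandas 2.3.3 and numpy 2.4.6 did the rest, and matplotlib 3.10.9 drew the figures.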

Additional observations from a re-analysis of the deposited data

How the results depend on the processing

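The number of the 33 or 34 members passing the between-library test was 30 or 31 under every other scaling, filter and table tried. It was 30 of 33 with DESeq2 size factors, beside 8955 of 13237 genes tested. With TMM on nuclear protein-coding genes it was 30 of 33, beside 8874 of 13237 genes. Without the count filter it was 30 of 34, beside 10064 of 21855 genes. The second transcript table gave 31 of 33 members, beside 11281 of 15513 genes. On leaving out 1 library, 29 members passed without replicate 1, 14 without replicate 2 and 28 without replicate 3. Beside them passed 56.7%, 33.4% and 53.0% of all genes tested, against 67.9% with all libraries. The count of members passing the goodness of fit was 1 under those alternatives of scaling, filter and table, in each case Fdft1. Of all genes tested, 262 of 13237 passed it with DESeq2 size factors and 265 of 13237 with TMM on nuclear protein-coding genes. Without the count filter 289 of 21855 passed it, and 302 of 15513 did so in the second table. On leaving out 1 library 0 to 1 members passed, beside 0.757% to 1.49% of all genes. The count of 16 enzymes highest in replicate 2 was the same under each of 5 alternatives chosen after seeing the data. Of all genes tested, 43.1% were highest there with DESeq2 size factors, 49.9% in the second table and 39.3% with TMM on nuclear protein-coding genes. That share was 55.2% without replicate 1 and 56.4% without replicate 3, against 44.1% with all libraries. On levels, the second transcript table gave medians of 2.08 for synthesis, 2.21 for control and 4.39 for handling genes, and TPM rescaled to nuclear protein-coding genes gave 4.91, 4.90 and 7.77. The second table rescaled in that way, an alternative added after seeing the data, gave 4.95, 5.12 and 7.59. Restricting to members of 1 TPM or more, which drops Ch25h, raised the handling median to 6.15. The difference of handling minus synthesis was 2.31 in the second table, 3.03 with members of 1 TPM or more, and 2.63 to 2.87 on leaving out 1 library. The cause of these shifts was not tested. Levels of 31 of 34 single genes moved by more than their SD in the second table, all downward, and none of 102 leave-one-out means did. Leaving out 1 library moved the medians to 2.92 to 3.26 for synthesis, 3.01 to 3.23 for control and 5.79 to 6.00 for handling genes, the control minus synthesis difference to -0.18 to 0.17, and the count of members with a leading transcript of 80% or more to 20 to 25. No paired analysis was possible because there is 1 group. Ch25h alone among the members had too few counts to be tested.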
